A study of Mus musculus with 8 samples.

Results

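The genes described here sense DNA damage and repair it. They are 41 genes listed by symbol for their known roles, and all 41 were found among the 24013 gene symbols of the expression table. The rule uses no measured value, but the list was made with earlier results of these data known. The list holds 9 genes of damage signalling, 12 of homologous recombination, 3 of the Fanconi anaemia pathway, 5 of end joining, 9 of base excision and strand break repair, 2 of mismatch repair and 1 of nucleotide excision repair. RNA was sequenced from sorted epithelial cells of the mouse intestine. The mice were Lyz1CreER; R26R-tdT on a mixed C57/BL6;129 background. All mice were 8 to 14 weeks old and had received 1 dose of tamoxifen (10 mg per mouse). Their Cre recombinase is driven by Lyz1, which encodes lysozyme and is used as a Paneth cell gene. Once tamoxifen activates it, the labelled cell and its descendants carry the red protein tdTomato, so the label marks any cell in which the driver was active. Viable cells negative for CD45 and positive for EpCAM and tdTomato were divided by CD24, a surface protein of Paneth cells. There were 3 libraries of tdT+CD24- cells from mice irradiated 5 days earlier, which the submitters call derivative cells. The Paneth gate, tdT+CD24+, gave 3 libraries from irradiated mice and 2 libraries from non-irradiated mice. No CD24- library from a non-irradiated mouse was analysed here, and the derivatives are therefore set against the other gate. The radiation dose is not given in the sources used here. No label says whether libraries of a group came from separate mice. Each p-value thus measures the spread between samples that may be technical replicates.

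Cells answer DNA damage in steps. The kinases ATM and ATR sense broken or stalled DNA and activate the checkpoint kinases CHK2 and CHK1, while marks on histone H2AX gather repair proteins at the break. Breaks across both strands are repaired either by homologous recombination, which copies the intact sister chromatid and is mostly used in cells that replicate their DNA, or by end joining, which ligates the broken ends in any phase of the cell cycle. Base excision repair replaces small damaged bases and mends breaks in a strand, mismatch repair corrects replication errors, and nucleotide excision repair removes bulky damage. In the intestine, the dividing cells of the crypt are the classic radiation-sensitive cells, whereas Paneth cells are long-lived, do not divide and survive doses that kill crypt stem cells.

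Expression is given as FPKM, that is sequenced fragments relative to the length of the transcript and to all mapped fragments of the library, so levels can be compared between genes. The read number of each library was approximated from the smallest steps between low values at 34.4 to 44.7 in units of 1e6, which puts the lowest level of any of the 41 genes (Rad51c, in derivative replicate 3) at about 30.1 reads. The gates differed in content: 25 Paneth cell markers made up 7.81%, 2.12% and 1.29% of all FPKM in the derivative libraries, 41.7% to 44.5% in irradiated CD24+ cells and 51.0% and 43.2% in non-irradiated CD24+ cells. Enterocyte markers (11 genes) made up 2.76% to 6.56% of all FPKM in derivatives, against 0.0622% to 0.0985% in irradiated and 0.0319% and 0.167% in non-irradiated CD24+ cells. The leukocyte gene Ptprc was below 0.54 FPKM in every library. Of 8 immune markers, 1 reached 1 FPKM in at least 2 libraries, Itgam. It had 2.91, 2.70 and 2.39 FPKM in derivatives, 0.574, 0.869 and 0.300 FPKM in irradiated and 0.360 and 0.295 FPKM in non-irradiated CD24+ cells. FPKM are relative to the total of a library, so the level of every other gene depends on this content. Over all 11190 genes tested, the log2 fold change had a median of 0.51 in derivatives over irradiated CD24+ cells, 0.32 in irradiated over non-irradiated CD24+ cells and 0.88 in derivatives over non-irradiated CD24+ cells. Fold changes of repair genes are therefore to be read against these medians, and for the genes called between the gates the relative value is given as well. Non-irradiated replicate 1 stood apart, with 9362 genes at 1 FPKM or more against 10293 to 10697 in the other 7 libraries.

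Most of the 41 genes were expressed at low levels, and none was at 0 in any library. The median over the 41 genes was 3.96, 3.46 and 2.81 FPKM in derivatives, 3.21, 3.79 and 3.94 FPKM in irradiated CD24+ cells and 1.84 and 3.37 FPKM in non-irradiated CD24+ cells. Parp1, the enzyme that marks DNA breaks with poly(ADP-ribose), had the highest mean level in each group, at 16.5 ± 4.66 FPKM (SD, n = 3) in derivatives, 17.9 ± 3.52 FPKM (SD, n = 3) in irradiated and 11.9 ± 5.05 FPKM in non-irradiated CD24+ cells (SD, n = 2). Xrcc6, which encodes the Ku70 protein that caps broken ends, ranked 2 of 41 in each group. At the other end stood genes of homologous recombination: Bard1, Brca2 and Rad51c took the 3 lowest ranks in all groups, and in derivatives their means were 0.642 ± 0.260, 0.427 ± 0.223 and 0.298 ± 0.0989 FPKM (SD, n = 3). The 4 genes that passed the test between the gates also held different places in the order by mean level. Xrcc4 ranked 14 of 41 in derivatives but 27 and 26 in irradiated and non-irradiated CD24+ cells, Lig4 ranked 16 against 31 and 30, Ercc1 ranked 19 against 30 and 29, and Ung ranked 24 against 14 and 15.

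**Figure D1:**
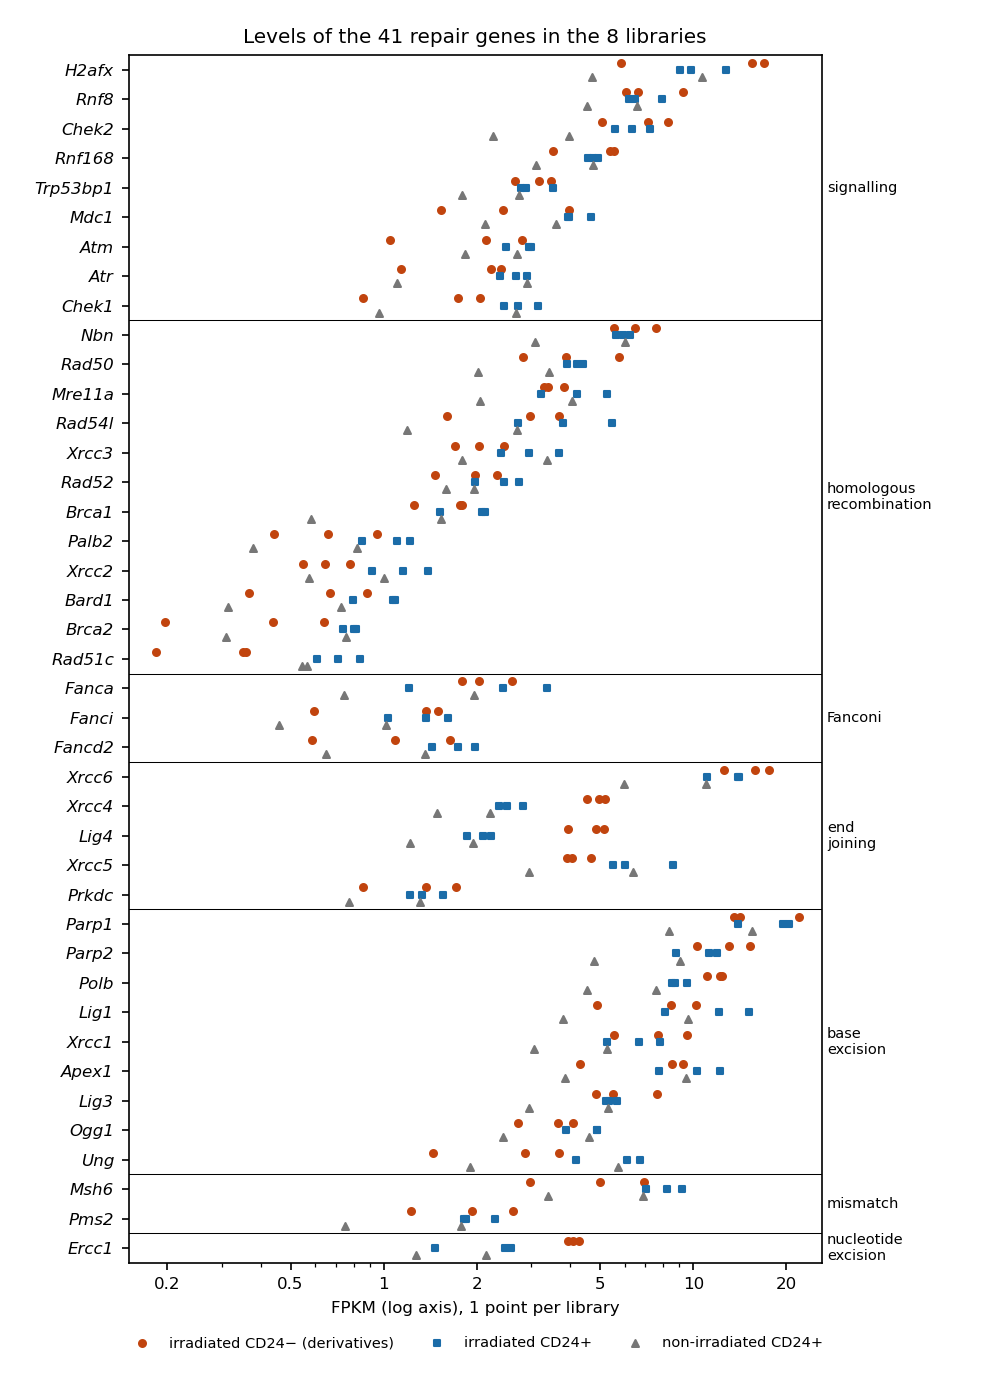
FPKM (log axis) of each of the 41 repair genes, grouped by repair class, with 1 point per library: circles for irradiated CD24- cells (derivatives), squares for irradiated CD24+ cells and triangles for non-irradiated CD24+ cells. Xrcc4, Lig4 and Ercc1 have their 3 derivative points to the right of every other point, and the lower triangle of each gene is non-irradiated replicate 1.

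In derivatives compared with irradiated CD24+ cells, 2 ligation genes of end joining (Lig4 and Xrcc4) and the excision nuclease gene Ercc1 rose, and Ung, a base excision gene, fell. The other 35 tested genes did not pass the test, and Brca2 and Rad51c were below the filter of 1 FPKM in at least 2 libraries. Thus 3 of 39 genes were called higher and 1 of 39 lower, by limma at a Benjamini-Hochberg adjusted p under 0.05 over all genes tested, where the background over all 11190 genes was 48.6% higher and 7.27% lower. As shares these are 7.69% higher and 2.56% lower, and the difference from the background was not tested. Their median log2 fold change was -0.14, against 0.51 for all genes, and 36 of the 39 were under the all-gene median. For 4 of the 39 every derivative library was above every irradiated CD24+ library (Lig4, Xrcc4, Ercc1 and Polb; background 59.1%), and for 5 every one was below (Chek1, Xrcc2, Xrcc5, Ung and Msh6; background 9.31%). In these bulk samples fewer cells of a type and less RNA per cell cannot be told apart.

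These calls depend on how libraries are scaled to each other. With libraries brought to a common median of ratios, 1 of the 39 was called higher (Lig4) and 29 lower, where the background was 32.4% higher and 24.4% lower. After rescaling to TPM, which gives every library the same total, 25 were called higher and 0 lower, with a background of 89.4% higher and 2.32% lower. The median of the repair genes was below that of all genes under each of the 5 scalings, and 36 of 39 were under the all-gene median with each of them. Apart from quantile normalization, these scalings multiply each library by 1 factor. Such a factor shifts all genes nearly alike, so this result was largely fixed in advance and is not separate support. Lig4 was called higher in all 20 alternative fits that tested it. Xrcc4 was called in 17 of 20 and Ercc1 in 16 of 20, both with a positive fold change in each. Ung was called lower in 14 of 21.

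**Figure D2:**
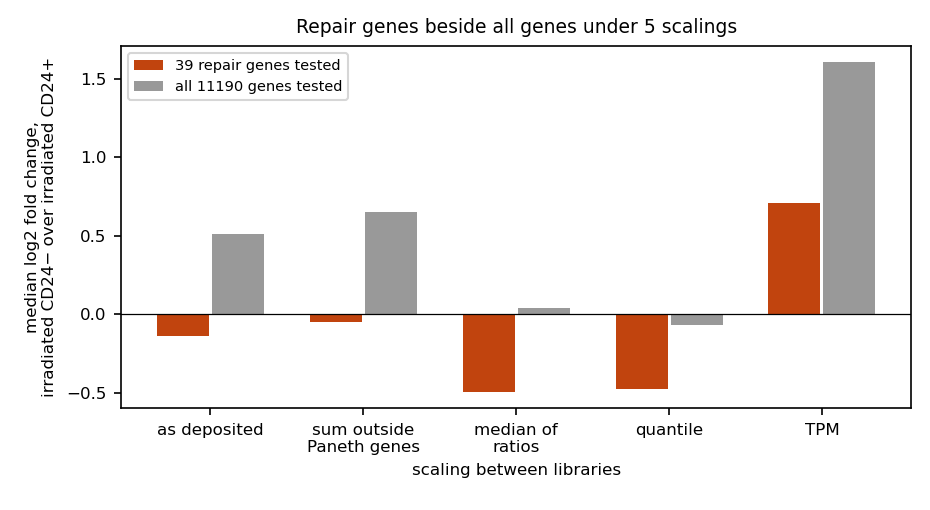
Median log2 fold change of irradiated CD24- cells (derivatives) over irradiated CD24+ cells for the 39 repair genes tested and for all 11190 genes tested, under 5 ways to scale the libraries. The repair gene bar lies below the all-gene bar under every scaling, while the sign of each bar depends on the scaling.

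**Figure D3:**
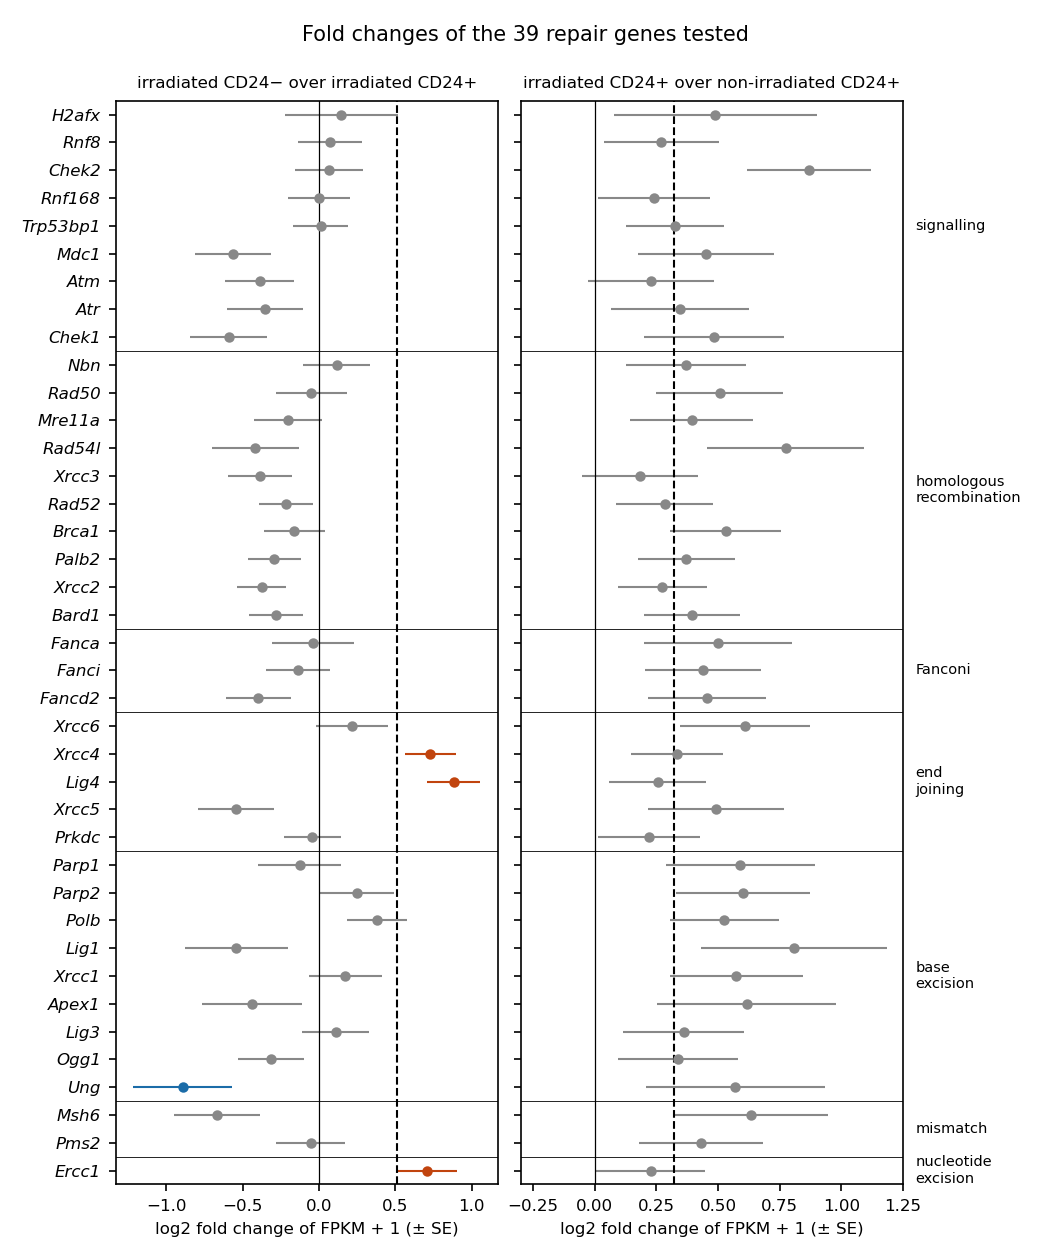
Log2 fold change of FPKM + 1 with its standard error for each of the 39 repair genes tested, by repair class, in irradiated CD24- over irradiated CD24+ cells (left) and in irradiated over non-irradiated CD24+ cells (right). The dashed line is the median of all genes tested, and coloured points on the left are the 3 genes called higher (Lig4, Xrcc4, Ercc1) and the 1 called lower (Ung).

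Among the genes that detect and signal damage, no gene of 9 passed the test between derivatives and irradiated CD24+ cells. Atm, the kinase that answers breaks across both strands, had 2.79, 2.14 and 1.05 FPKM in derivatives, 2.99, 2.94 and 2.49 FPKM in irradiated CD24+ cells and 1.84 and 2.70 FPKM in non-irradiated CD24+ cells. Atr, the kinase of stalled replication forks, had 2.39, 2.23 and 1.13 FPKM in derivatives, 2.38, 2.68 and 2.90 FPKM in irradiated and 1.11 and 2.91 FPKM in non-irradiated CD24+ cells. In both kinases derivative replicate 3 was the lowest derivative library, non-irradiated replicate 1 was the lower of its pair, and the groups overlapped. Their log2 fold changes in derivatives over irradiated CD24+ cells were -0.39 ± 0.23 and -0.35 ± 0.25 (SE), with limma adjusted p-values of 0.17 and 0.25.

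The checkpoint kinases below them differed in pattern. Chek1, the target of ATR, had 2.04, 1.74 and 0.858 FPKM in derivatives, 2.44, 2.72 and 3.14 FPKM in irradiated CD24+ cells and 0.967 and 2.67 FPKM in non-irradiated CD24+ cells. Every derivative library was below every irradiated CD24+ library, and the log2 fold change of -0.59 ± 0.25 (SE) had a limma adjusted p of 0.067, short of the threshold. Chek2, the target of ATM, had 8.28, 7.13 and 5.06 FPKM in derivatives, 5.58, 6.33 and 7.27 FPKM in irradiated CD24+ cells and 2.26 and 3.98 FPKM in non-irradiated CD24+ cells. Its 6 irradiated libraries of either gate were all above its 2 non-irradiated libraries, and the derivatives overlapped the irradiated CD24+ cells.

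Proteins that build the platform around a break followed. H2afx, the gene of the histone whose phosphorylated form marks breaks, had 17.0, 15.5 and 5.86 FPKM in derivatives, 9.05, 12.8 and 9.85 FPKM in irradiated and 4.69 and 10.7 FPKM in non-irradiated CD24+ cells. Derivative replicate 3 was thus below all irradiated CD24+ libraries and the other derivative libraries above them. Mdc1, the reader of that mark, had 3.96, 2.43 and 1.53 FPKM in derivatives, 3.96, 4.66 and 3.94 FPKM in irradiated and 2.12 and 3.59 FPKM in non-irradiated CD24+ cells, with a log2 fold change of -0.56 ± 0.25 (SE) in derivatives over irradiated CD24+ cells (limma adjusted p = 0.074). Trp53bp1, which favours end joining at breaks, had 2.66, 3.46 and 3.17 FPKM in derivatives, 3.52, 2.78 and 2.88 FPKM in irradiated and 1.79 and 2.74 FPKM in non-irradiated CD24+ cells. The ubiquitin ligase genes Rnf8 and Rnf168 ranged from 6.07 to 9.30 and from 3.52 to 5.54 FPKM in derivatives, against 6.21 to 7.91 and 4.56 to 4.94 FPKM in irradiated CD24+ cells, and the groups overlapped for each. Trp53bp1 and H2afx share over 10% of their exon bases with a gene on the other strand, and the library kit keeps no strand information, so their levels may include reads of that neighbour.

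Genes of homologous recombination were low in every group and none was called. Of its 10 tested genes none passed the test in derivatives over irradiated CD24+ cells, 9 of the 10 had a negative fold change, all 10 were under the all-gene median, and their median log2 fold change was -0.25. After TPM rescaling 0 of the 39 repair genes had a negative fold change, so the sign rests on the scaling. Brca1, which helps load the recombinase onto broken DNA, had 1.79, 1.25 and 1.76 FPKM in derivatives, 1.52, 2.08 and 2.12 FPKM in irradiated CD24+ cells and 0.584 and 1.54 FPKM in non-irradiated CD24+ cells. Its partner Bard1 had 0.885, 0.672 and 0.368 FPKM in derivatives, 0.795, 1.09 and 1.07 FPKM in irradiated and 0.314 and 0.726 FPKM in non-irradiated CD24+ cells. In derivative replicate 3 Bard1 was at its lowest of the group, whereas Brca1 was close to its level in replicate 1.

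Brca2 and Rad51c were the lowest of the class in both irradiated groups. Brca2, which carries the recombinase to the break, had 0.643, 0.440 and 0.197 FPKM in derivatives, 0.740, 0.801 and 0.816 FPKM in irradiated CD24+ cells and 0.308 and 0.753 FPKM in non-irradiated CD24+ cells. Rad51c, a recombinase paralog, had 0.359, 0.350 and 0.184 FPKM in derivatives, 0.714, 0.840 and 0.607 FPKM in irradiated CD24+ cells and 0.544 and 0.565 FPKM in non-irradiated CD24+ cells. For both, all derivative libraries were below all irradiated CD24+ libraries, but neither passed the filter, so neither was tested in the fit described above. With no filter on low values Rad51c was called lower, with a log2 fold change of -0.41 ± 0.075 (SE; limma adjusted p = 0.0053), and Brca2 was not (-0.34 ± 0.14, SE; limma adjusted p = 0.11).

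Among the other recombination genes, the paralog genes Xrcc2 and Xrcc3 had the smallest p-values. Xrcc2 had 0.777, 0.644 and 0.550 FPKM in derivatives, 0.917, 1.15 and 1.39 FPKM in irradiated and 0.573 and 0.999 FPKM in non-irradiated CD24+ cells, and Xrcc3 had 2.44, 2.03 and 1.70 FPKM in derivatives, 2.40, 2.94 and 3.68 FPKM in irradiated and 1.79 and 3.37 FPKM in non-irradiated CD24+ cells. Their log2 fold changes of -0.37 ± 0.16 and -0.38 ± 0.21 (SE) in derivatives over irradiated CD24+ cells had limma adjusted p-values of 0.068 and 0.14. Palb2, the bridge between BRCA1 and BRCA2, had 0.948, 0.662 and 0.444 FPKM in derivatives, 0.849, 1.10 and 1.21 FPKM in irradiated and 0.377 and 0.820 FPKM in non-irradiated CD24+ cells. Rad54l, a motor protein of strand exchange, had 3.68, 2.97 and 1.60 FPKM in derivatives, 2.72, 3.79 and 5.45 FPKM in irradiated and 1.19 and 2.69 FPKM in non-irradiated CD24+ cells, with the derivatives overlapping irradiated CD24+ cells. The genes of the MRN complex, which trims broken ends, stood higher and overlapped between the gates. Nbn averaged 6.54 ± 1.01 FPKM in derivatives and 5.93 ± 0.326 FPKM in irradiated CD24+ cells, Rad50 4.15 ± 1.49 and 4.19 ± 0.250 FPKM, and Mre11a 3.50 ± 0.276 and 4.23 ± 1.03 FPKM in the same groups (SD, n = 3 each). Rad52, an annealing factor, averaged 1.92 ± 0.431 FPKM in derivatives and 2.39 ± 0.383 FPKM in irradiated CD24+ cells (SD, n = 3 each). The 3 Fanconi genes, which act at DNA crosslinks, had no call either. Fancd2 had 1.63, 1.08 and 0.585 FPKM in derivatives, 1.43, 1.74 and 1.98 FPKM in irradiated and 0.652 and 1.36 FPKM in non-irradiated CD24+ cells. Its partner Fanci had 1.50, 1.37 and 0.597 FPKM in derivatives, 1.03, 1.37 and 1.61 FPKM in irradiated and 0.459 and 1.01 FPKM in non-irradiated CD24+ cells. Fanca, of the core complex, had 2.60, 2.03 and 1.79 FPKM in derivatives, 1.20, 2.42 and 3.37 FPKM in irradiated and 0.742 and 1.95 FPKM in non-irradiated CD24+ cells. All 3 overlapped between the gates. Fanci, Fanca and Rad54l share over 10% of their exon bases with a gene on the other strand.

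End joining genes were called higher in derivatives in 2 of 5 (40%, background 48.6%) and lower in 0 of 5 (background 7.27%). The 2 called were the genes of the final ligation step, and the genes of the end-binding Ku and DNA-PK proteins did not pass the test. Lig4, the ligase of end joining, had 5.16, 4.83 and 3.93 FPKM in derivatives, 2.09, 2.23 and 1.86 FPKM in irradiated CD24+ cells and 1.21 and 1.95 FPKM in non-irradiated CD24+ cells. Xrcc4, which holds that ligase, had 4.53, 5.19 and 4.97 FPKM in derivatives, 2.50, 2.36 and 2.82 FPKM in irradiated CD24+ cells and 1.49 and 2.20 FPKM in non-irradiated CD24+ cells. In both genes every derivative library was above all 5 CD24+ libraries. The log2 fold changes in derivatives over irradiated CD24+ cells were 0.88 ± 0.18 for Lig4 and 0.73 ± 0.17 for Xrcc4 (SE), with limma adjusted p-values of 0.0014 and 0.0033. Relative to the median of all genes they were 0.37 and 0.22 on the log2 scale. With median-of-ratios scaling Xrcc4 was at 0.28 with a limma adjusted p of 0.071, which ends the call, while Lig4 was at 0.44 with a limma adjusted p of 0.0096.

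The 2 Ku genes had fold changes of opposite sign, neither of which passed the test. Xrcc5, the gene of Ku80, had 4.68, 3.90 and 4.07 FPKM in derivatives, 5.50, 6.01 and 8.61 FPKM in irradiated CD24+ cells and 2.94 and 6.39 FPKM in non-irradiated CD24+ cells. Xrcc6, the gene of its partner Ku70, had 17.6, 15.8 and 12.6 FPKM in derivatives, 11.04, 14.0 and 14.0 FPKM in irradiated CD24+ cells and 5.97 and 10.97 FPKM in non-irradiated CD24+ cells. All derivative libraries were below all irradiated CD24+ libraries for Xrcc5 and overlapped them for Xrcc6, and the log2 fold changes were -0.54 ± 0.25 and 0.22 ± 0.24 (SE; limma adjusted p = 0.081 and 0.46). Prkdc, the catalytic subunit of DNA-PK, had 1.72, 1.37 and 0.860 FPKM in derivatives, 1.33, 1.55 and 1.21 FPKM in irradiated and 0.771 and 1.31 FPKM in non-irradiated CD24+ cells, with overlap.

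Ercc1 is the only nucleotide excision gene among the 41, and with its partner it cuts DNA beside bulky damage and crosslinks. It had 4.28, 3.95 and 4.08 FPKM in derivatives, 1.47, 2.46 and 2.58 FPKM in irradiated CD24+ cells and 1.27 and 2.14 FPKM in non-irradiated CD24+ cells. The derivative libraries were close together and above all 5 CD24+ libraries. The log2 fold change was 0.71 ± 0.20 (SE), with a limma adjusted p of 0.010, or 0.20 relative to the median of all genes. Without irradiated CD24+ replicate 1, its lowest library of that group, it was 0.54 with a limma adjusted p of 0.067. With median-of-ratios scaling it was 0.28 with a limma adjusted p of 0.0996.

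Base excision repair held the gene that fell and several of the most abundant repair genes. Ung, the glycosylase that removes uracil from DNA and is most active during replication, had 3.68, 2.85 and 1.45 FPKM in derivatives, 4.17, 6.09 and 6.71 FPKM in irradiated CD24+ cells and 1.90 and 5.73 FPKM in non-irradiated CD24+ cells. Every derivative library was below every irradiated CD24+ library, and the non-irradiated libraries spanned most of that range. The log2 fold change was -0.89 ± 0.33 (SE), with a limma adjusted p of 0.036, or -1.40 relative to the median of all genes. The call ended when derivative replicate 2 or 3 or irradiated CD24+ replicate 2 or 3 was left out (limma adjusted p of 0.055, 0.11, 0.086 and 0.093), with no filter on low values (0.11) and with libraries scaled to genes outside the Paneth list (0.058). After TPM rescaling the sign turned, to 0.093 on the log2 scale.

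The ligase genes of base excision repair and the glycosylase Ogg1, which removes oxidised guanine, did not pass the test. Lig1, the replication ligase, had 10.2, 8.50 and 4.89 FPKM in derivatives, 8.13, 12.1 and 15.2 FPKM in irradiated CD24+ cells and 3.80 and 9.58 FPKM in non-irradiated CD24+ cells. Ogg1 had 4.07, 3.65 and 2.72 FPKM in derivatives, 3.88, 4.89 and 4.89 FPKM in irradiated and 2.43 and 4.60 FPKM in non-irradiated CD24+ cells. Both overlapped between the gates, with derivative replicate 3 the lowest of its group. Parp1 had 14.2, 13.5 and 21.9 FPKM in derivatives, 13.9, 19.5 and 20.4 FPKM in irradiated and 8.35 and 15.5 FPKM in non-irradiated CD24+ cells. It was the only one of the 41 genes whose highest derivative library was replicate 3. Polb, the gap-filling polymerase, had 12.4, 12.2 and 11.1 FPKM in derivatives, 8.71, 8.52 and 9.52 FPKM in irradiated and 4.53 and 7.58 FPKM in non-irradiated CD24+ cells. Its derivative libraries were above all CD24+ libraries, but the log2 fold change of 0.38 ± 0.20 (SE) had a limma adjusted p of 0.12 and lay below the median of all genes. Parp2, a second break sensor, had 15.3, 13.1 and 10.3 FPKM in derivatives, 8.78, 11.2 and 11.9 FPKM in irradiated and 4.77 and 9.06 FPKM in non-irradiated CD24+ cells. Apex1, the nuclease that cuts at lost bases, averaged 7.38 ± 2.68 FPKM in derivatives and 10.1 ± 2.26 FPKM in irradiated CD24+ cells (SD, n = 3 each), but 61.7% of its exon bases overlap a gene on the other strand. Xrcc1, the scaffold of strand break repair, averaged 7.61 ± 2.01 FPKM in derivatives and 6.57 ± 1.27 FPKM in irradiated CD24+ cells, and its ligase Lig3 5.999 ± 1.47 and 5.40 ± 0.227 FPKM in the same groups (SD, n = 3 each), all overlapping. Lig3 and Ogg1 share 25.1% and 10.6% of their exon bases with a gene on the other strand.

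The 2 mismatch repair genes had no call. Msh6, which recognises mispaired bases, had 6.95, 5.01 and 2.98 FPKM in derivatives, 7.05, 8.23 and 9.21 FPKM in irradiated CD24+ cells and 3.39 and 6.88 FPKM in non-irradiated CD24+ cells. The derivative libraries were all below the irradiated CD24+ libraries, replicate 1 by a small margin, and the log2 fold change of -0.67 ± 0.28 (SE) had a limma adjusted p of 0.065. Pms2, an endonuclease subunit of the later step, had 2.61, 1.93 and 1.23 FPKM in derivatives, 1.85, 1.82 and 2.29 FPKM in irradiated and 0.752 and 1.78 FPKM in non-irradiated CD24+ cells, with overlap.

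Libraries of the 2 irradiated groups with the same replicate number deviated together, and a fit with replicate number as a block gave more lower calls. That fit called the 3 genes Lig4, Xrcc4 and Ercc1 higher and 4 genes lower, adding Chek1, Mdc1 and Msh6 to Ung. In the fit of only the 2 irradiated groups with the block, Polb was also called higher and Xrcc5 lower, which makes 4 higher and 5 lower. Leaving out a single library moved the lower calls as well: 5 were made without derivative replicate 1 (Chek1, Fancd2, Mdc1, Msh6 and Ung), and 5 without either non-irradiated library (Chek1, Msh6, Ung, Xrcc2 and Xrcc5).

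The sequence around the start sites of Lig4, Xrcc4, Ercc1 and Ung is shown because these 4 genes passed the test between the gates with the values as deposited. Each line gives the 300 bases from 250 before to 50 after the start, 5′ to 3′ in the direction of the gene, from RefSeq on build GRCm38.p6. Capitals mark the letters GGGCGG or their complement CCGCCC, the GC box bound by Sp factors. The deposited table gives no coordinates, and the submitters' processing notes name another build, mm9.
Lig4 (chr8:9976262-9976561, minus strand): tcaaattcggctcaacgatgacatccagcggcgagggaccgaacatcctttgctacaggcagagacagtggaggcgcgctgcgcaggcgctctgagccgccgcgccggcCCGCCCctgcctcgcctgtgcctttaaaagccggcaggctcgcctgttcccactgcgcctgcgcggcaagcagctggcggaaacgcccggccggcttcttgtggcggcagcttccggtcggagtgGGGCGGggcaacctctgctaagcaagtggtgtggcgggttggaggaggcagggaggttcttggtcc
Lig4 (chr8:9977631-9977930, minus strand): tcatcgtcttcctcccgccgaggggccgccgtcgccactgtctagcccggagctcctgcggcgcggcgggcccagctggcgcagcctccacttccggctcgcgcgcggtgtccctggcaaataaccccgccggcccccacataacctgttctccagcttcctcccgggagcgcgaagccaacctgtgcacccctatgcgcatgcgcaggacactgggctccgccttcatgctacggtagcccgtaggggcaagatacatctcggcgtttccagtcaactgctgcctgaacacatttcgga
Xrcc4 (chr13:90089559-90089858, minus strand): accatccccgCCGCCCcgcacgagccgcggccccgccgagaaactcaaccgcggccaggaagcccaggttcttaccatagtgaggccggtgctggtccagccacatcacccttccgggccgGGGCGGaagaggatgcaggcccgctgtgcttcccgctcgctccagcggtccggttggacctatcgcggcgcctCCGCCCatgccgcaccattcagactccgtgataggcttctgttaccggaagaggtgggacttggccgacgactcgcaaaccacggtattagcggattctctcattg
Ercc1 (chr7:19344821-19345120, plus strand): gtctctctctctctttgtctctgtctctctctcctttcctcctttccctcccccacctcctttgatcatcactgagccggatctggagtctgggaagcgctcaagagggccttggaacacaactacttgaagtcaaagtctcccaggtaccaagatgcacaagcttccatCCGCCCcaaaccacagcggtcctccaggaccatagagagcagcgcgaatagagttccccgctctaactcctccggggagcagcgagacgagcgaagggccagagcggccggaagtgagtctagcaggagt
Ung (chr5:114130185-114130484, plus strand): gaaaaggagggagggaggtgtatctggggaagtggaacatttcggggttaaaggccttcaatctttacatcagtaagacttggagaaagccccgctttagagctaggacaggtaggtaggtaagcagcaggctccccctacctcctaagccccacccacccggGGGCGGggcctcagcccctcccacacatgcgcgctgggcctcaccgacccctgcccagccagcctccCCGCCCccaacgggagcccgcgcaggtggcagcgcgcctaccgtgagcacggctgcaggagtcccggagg

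Lig4 has 2 listed starts, of which the first shown holds 2 GC boxes and the second none. Xrcc4 holds 3, Ung 2 and Ercc1 1. Of the 39 promoters listed for 34 of the 41 genes, 31 hold at least 1 (79.5%), against 62.6% of the 10721 promoters of the genes tested, 35.7% of all 32851 promoters in the table and 54.7% of 75 promoters of other repair genes. None of these 5 promoters holds TTTCCCGC, TTTGGCGC, TTTGAA or CCAAT on either strand.

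Set side by side, the repair classes differed in their derivative levels, which was not tested because the classes are small and their genes were chosen with results known. The median of the 5 end joining genes was 4.68, 4.83 and 4.07 FPKM in derivatives, 2.50, 2.36 and 2.82 FPKM in irradiated CD24+ cells and 1.49 and 2.20 FPKM in non-irradiated CD24+ cells. The derivative medians were above all CD24+ medians, whereas the sums over the 5 genes overlapped, at 33.7, 31.1 and 26.4 FPKM in derivatives and 22.4, 26.1 and 28.5 FPKM in irradiated CD24+ cells. Of the 5 end joining genes, 2 (Lig4 and Xrcc4) had every derivative library above every irradiated CD24+ library (background 59.1%). For 1 (Xrcc5) every one was below (background 9.31%). The median of the 12 homologous recombination genes was 2.06, 1.61 and 1.53 FPKM in derivatives, 1.75, 2.41 and 2.29 FPKM in irradiated and 0.887 and 1.75 FPKM in non-irradiated CD24+ cells. For the 9 base excision genes it was 9.58, 8.50 and 4.89 FPKM in derivatives, 7.74, 8.52 and 9.52 FPKM in irradiated and 3.80 and 7.58 FPKM in non-irradiated CD24+ cells. These medians overlapped between the gates, and base excision had the highest median of the 4 classes in every library. The median of the 2 mismatch genes was 4.78, 3.47 and 2.102 FPKM in derivatives, 4.45, 5.02 and 5.75 FPKM in irradiated and 2.07 and 4.33 FPKM in non-irradiated CD24+ cells. As log2 fold changes of derivatives over irradiated CD24+ cells, the class medians of tested genes were 0.22 for end joining, -0.13 for base excision, -0.25 for homologous recombination and -0.36 for mismatch repair, against 0.51 for all genes.

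Cell cycle markers varied in the same libraries. Derivative replicate 3 was the lowest derivative library for 34 of the 41 repair genes and for 28 of 28 cell cycle markers, against 51.0% of all genes tested. Derivative replicate 1 was the highest for 38 of the 41 and for 26 of the 28, against 50.4% of all genes tested. The median of the 28 markers was 13.2, 10.3 and 7.20 FPKM in derivatives, 10.2, 12.3 and 15.9 FPKM in irradiated CD24+ cells and 4.68 and 9.62 FPKM in non-irradiated CD24+ cells, and none was at 0 in any library. Between derivatives and irradiated CD24+ cells, 0 of the 28 were called higher and 1 lower (E2f1), and all 28 were under the all-gene median. Mki67, a marker of dividing cells, had 16.5, 7.30 and 5.70 FPKM in derivatives, 11.2, 13.8 and 13.03 FPKM in irradiated and 5.39 and 10.1 FPKM in non-irradiated CD24+ cells. Top2a had 31.1, 21.6 and 11.5 FPKM in derivatives and 23.8, 26.8 and 34.5 FPKM in irradiated CD24+ cells, and the replication gene Mcm2 had 10.6, 7.40 and 5.05 FPKM in derivatives and 10.9, 14.1 and 15.8 FPKM in irradiated CD24+ cells. Pcna, the replication clamp, had 98.2, 103 and 66.8 FPKM in derivatives and 56.6, 77.3 and 84.3 FPKM in irradiated CD24+ cells. Derivative replicate 3 also had the largest enterocyte marker share (6.56%) and the smallest Paneth marker share (1.29%) of its group. Other content varied too. Of 8 enteroendocrine markers, Chga, Chgb, Neurod1 and Tph1 were highest in derivative replicate 3, and Cck, Ghrl, Gcg and Sct in replicate 2. Chga had 84.2, 332 and 1132 FPKM in derivatives, and Vim 3.90, 11.7 and 43.5 FPKM. The goblet markers Muc2, Tff3, Fcgbp and Zg16 were lowest in replicate 3, and Clca1 and Agr2 were highest there. The part of cell division and cell content in the repair gene levels was not tested.

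**Figure D4:**
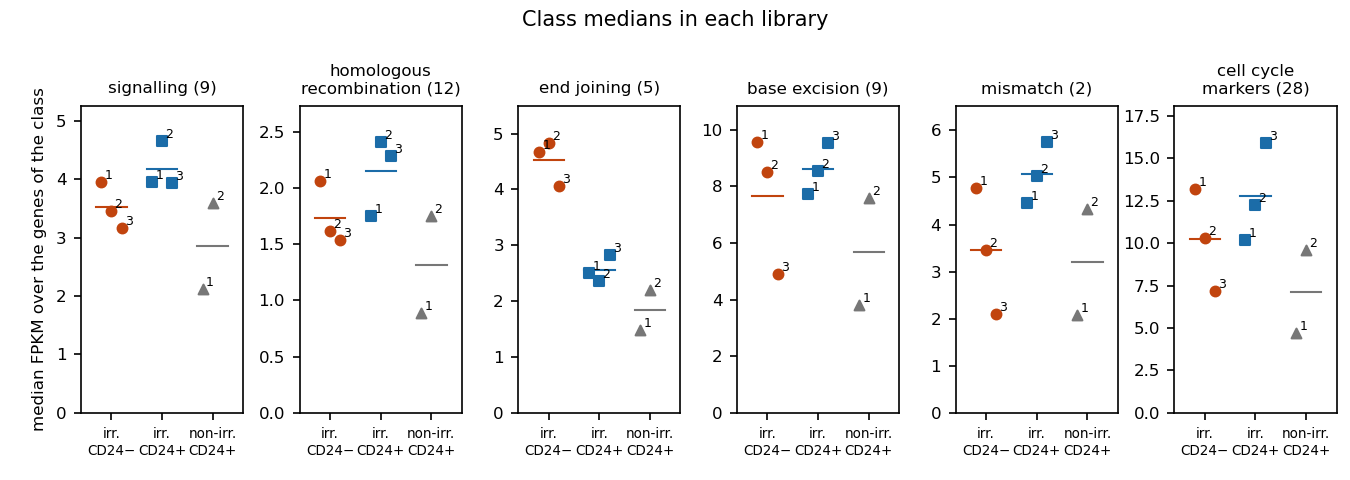
Median FPKM over the genes of each class in each library (points, numbered by replicate) with the mean over libraries (line), for irradiated CD24- cells (irr. CD24−), irradiated CD24+ cells (irr. CD24+) and non-irradiated CD24+ cells (non-irr. CD24+). End joining is higher in all 3 irradiated CD24- libraries, while base excision, mismatch and the cell cycle markers are lowest in replicate 3 of that group.

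Within the Paneth gate, no repair gene passed the test 5 days after irradiation. All 39 tested genes had a positive fold change in irradiated over non-irradiated CD24+ cells (12 were negative after median-of-ratios scaling), but 0 were called higher and 0 lower by limma at an adjusted p under 0.05, where the background over all genes was 0% higher and 0% lower. At an unadjusted p under 0.05, 6 of 39 were higher and 0 lower, with a background of 12.2% higher and 0.536% lower. The median log2 fold change of the 39 was 0.44, against 0.32 for all genes, and 30 of 39 were over the all-gene median. With 2 non-irradiated libraries, of which replicate 1 was the lower for all 41 repair genes and for 95.0% of all genes tested, the comparison rests on few values. A call that is missing here does not show that the genes were unchanged. Markers of other kinds varied beside them. All 28 cell cycle markers had a positive fold change, with a median of 0.77 and 12 at an unadjusted p under 0.05, and their summed level was 327 to 531 FPKM in irradiated CD24+ cells, against 163 and 352 FPKM in non-irradiated CD24+ cells. All 8 enteroendocrine markers were positive (median 1.75), with sums of 265 to 1113 FPKM in irradiated and 145 and 148 FPKM in non-irradiated CD24+ cells. All 7 tuft markers were negative and without overlap (median -0.92), with sums of 6.44 to 17.3 FPKM in irradiated and 22.8 and 30.2 FPKM in non-irradiated CD24+ cells. None of these markers was at 0 in these libraries or called by limma at an adjusted p under 0.05, and their part in the repair gene levels was not tested.

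Chek2 had the smallest p of the 39 in this comparison. Its log2 fold change was 0.87 ± 0.25 (SE), with an unadjusted p of 0.0053 and a limma adjusted p of 0.35, and its 3 irradiated CD24+ libraries (5.58, 6.33 and 7.27 FPKM) were above both non-irradiated ones (2.26 and 3.98 FPKM). Rad54l followed with 0.78 ± 0.32, Polb with 0.52 ± 0.22, Brca1 with 0.53 ± 0.23, Xrcc6 with 0.61 ± 0.26 and Parp2 with 0.60 ± 0.27 (log2 fold change, SE), each with a limma adjusted p of 0.35. For 16 of the 39 genes the irradiated CD24+ libraries were all above the non-irradiated ones, with a background of 34.2% of all genes, and for none were they all below (background 1.13%). Fold changes of the other genes ranged from 0.18 for Xrcc3 to 0.81 for Lig1. Base excision had the highest class median, 0.57, then mismatch repair with 0.53, homologous recombination with 0.38 and end joining with 0.33, and all 9 base excision genes were over the all-gene median.

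The size of these fold changes rested on the non-irradiated libraries. Without non-irradiated replicate 1 the median of the 39 genes was 0.11, against 0.071 for all genes, and 8 of the 39 had a negative fold change. Without non-irradiated replicate 2, which leaves replicate 1 as the only control and assumes that it varies like the other groups, 21 of 39 were called higher, with a background of 46.4%. After median-of-ratios scaling the median of the 39 was 0.12, against -0.034 for all genes. Chek2 had a positive fold change in all 19 alternative fits, from 0.52 to 1.18 on the log2 scale. Other genes, such as Rad54l, Lig1 and Msh6, were also positive in each of these fits that tested them, whereas Ung and Atr were not.

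Derivatives set against non-irradiated CD24+ cells differ in gate and irradiation together. Here 8 of 39 genes rose and none fell, by limma at an adjusted p under 0.05, with a background of 65.7% higher and 4.99% lower. They were the end joining genes Lig4, Xrcc4 and Xrcc6, the base excision genes Polb, Parp2 and Xrcc1, Chek2 and Ercc1. Lig4 had a log2 fold change of 1.14 ± 0.20 and Xrcc4 of 1.06 ± 0.19 (SE; limma adjusted p = 0.00044 and 0.00048). Chek2 was at 0.94 ± 0.25 (SE; limma adjusted p = 0.0064), which lies 0.06 above the median of all genes, 0.88. No homologous recombination, Fanconi or mismatch gene was called, and 34 of the 39 were under the all-gene median. With median-of-ratios scaling only Lig4 was called higher and 15 genes lower. The count higher was 4 without non-irradiated replicate 1 (Lig4, Xrcc4, Ercc1 and Polb), 15 without non-irradiated replicate 2, 5 without derivative replicate 1 and 12 without derivative replicate 3. This comparison shares its libraries with both others, so its calls are not separate evidence.

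Ratios of partner genes within a library do not depend on the scaling between libraries. The 12 ratios were chosen by known partnership after the values had been seen, and are given as a description. An exact permutation test of 3 libraries against 3 cannot give a p under 0.1, so no ratio could pass it between the irradiated groups. Xrcc6 over Xrcc5, the 2 Ku subunits, was 3.76, 4.05 and 3.10 in derivatives, 2.01, 2.33 and 1.63 in irradiated CD24+ cells and 2.03 and 1.72 in non-irradiated CD24+ cells. All derivative ratios were above all CD24+ ratios. Lig4 over Lig1, the end joining ligase over the replication ligase, was 0.505, 0.569 and 0.804 in derivatives, 0.257, 0.183 and 0.122 in irradiated CD24+ cells and 0.319 and 0.203 in non-irradiated CD24+ cells, again without overlap. Chek2 over Atm was 2.97, 3.34 and 4.83 in derivatives, 1.87, 2.16 and 2.92 in irradiated CD24+ cells and 1.23 and 1.47 in non-irradiated CD24+ cells, so the 3 groups did not overlap. Lig4 over Xrcc4, by contrast, was 1.14, 0.931 and 0.792 in derivatives, 0.834, 0.945 and 0.657 in irradiated CD24+ cells and 0.816 and 0.886 in non-irradiated CD24+ cells, all overlapping. Chek1 over Atr and Fancd2 over Fanci were lower in every derivative library than in every irradiated CD24+ library. Their means were 0.797 ± 0.0522 and 0.954 ± 0.151 in derivatives, against 1.04 ± 0.0362 and 1.296 ± 0.0828 in irradiated CD24+ cells (SD, n = 3 each). Derivative replicate 3 stood alone in Brca1 over Bard1, at 4.79 against 2.02 and 1.87 in the other derivative libraries, and in Parp1 over Parp2, at 2.13 against 0.929 and 1.03.

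**Figure D5:**
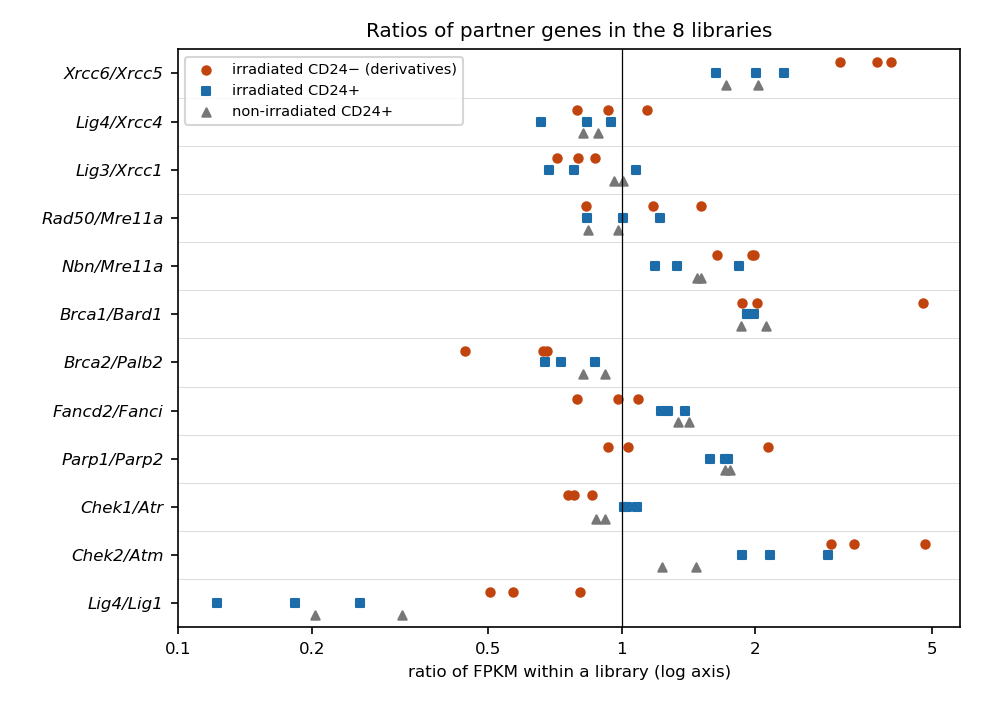
Ratio of FPKM between partner genes in each library (log axis): circles for irradiated CD24- cells (derivatives), squares for irradiated CD24+ cells and triangles for non-irradiated CD24+ cells. The circles of Xrcc6/Xrcc5, Lig4/Lig1 and Chek2/Atm lie to the right of all squares, those of Fancd2/Fanci and Chek1/Atr to the left, and the others overlap.

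Other genes of the same pathways, 85 listed by function, gave a wider view of each class. Of them 83 were in the table and 77 were tested. Of these, 16 were called higher and 3 lower in derivatives over irradiated CD24+ cells (20.8% and 3.90%, with the same background of 48.6% and 7.27%), their median log2 fold change was 0.13 and 61 of 77 were under the all-gene median. End joining genes were called higher in 3 of 8 (37.5%, background 48.6%). Among them Nhej1, the partner of XRCC4, had 4.44, 3.69 and 3.87 FPKM in derivatives, against 2.42, 2.34 and 1.999 FPKM in irradiated CD24+ cells. The polymerase gene Polm had 6.36, 5.24 and 6.29 FPKM in derivatives, against 3.04, 3.84 and 3.99 FPKM in irradiated CD24+ cells. Both were without overlap, as were Lig4 and Xrcc4. Of the 8 genes, 5 had every derivative library above every irradiated CD24+ library (background 59.1%), and 1 had every one below (background 9.31%). The latter was Rif1, with 3.68, 2.79 and 1.25 FPKM in derivatives, against 3.99, 3.76 and 3.82 FPKM in irradiated CD24+ cells.

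Nucleotide excision genes were called higher in 3 of 13 (23.1%, background 48.6%). Among them Xpa, which verifies damage, had 6.01, 6.85 and 6.09 FPKM in derivatives, against 2.85, 3.08 and 2.55 FPKM in irradiated CD24+ cells, and the helicase gene Ercc3 had 18.4, 18.8 and 19.1 FPKM against 8.13, 9.41 and 10.3 FPKM in the same groups. Base excision genes were called higher in 3 of 12 (25%, background 48.6%). Parp3 had 6.49, 4.12 and 6.63 FPKM in derivatives, against 1.69, 0.984 and 1.63 FPKM in irradiated CD24+ cells, with the largest fold change of the 77, 1.46 ± 0.23 on the log2 scale (SE; limma adjusted p = 0.00032). Neil1, a glycosylase, and Aptx, which frees blocked ends, followed at 0.72 ± 0.19 and 0.58 ± 0.17 (log2 fold change, SE; limma adjusted p = 0.0071 and 0.013).

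Of the other recombination genes, 5 of 18 were called higher and 1 lower (27.8% and 5.56%, background 48.6% and 7.27%). Slx4, a nuclease scaffold, had 4.27, 2.91 and 3.03 FPKM in derivatives, against 1.20, 1.43 and 1.23 FPKM in irradiated CD24+ cells, and the nuclease subunit gene Eme1 had 7.79, 8.60 and 9.61 FPKM against 2.78, 4.16 and 4.99 FPKM. Rad51b, like Rad51c a recombinase paralog, was the gene that fell, with 0.550, 0.557 and 0.227 FPKM in derivatives, against 1.33, 1.66 and 1.27 FPKM in irradiated CD24+ cells (log2 fold change -0.75 ± 0.16, SE; limma adjusted p = 0.0020). The other lower calls were the mismatch gene Mlh3, with 1.29, 1.01 and 0.946 FPKM in derivatives against 1.91, 2.23 and 1.79 FPKM in irradiated CD24+ cells, and Fancm, a Fanconi translocase, with 0.836, 0.514 and 0.380 FPKM against 1.18, 1.16 and 1.21 FPKM. Pms1 and Msh3, the other mismatch genes, had log2 fold changes of -0.42 and 0.12 without a call. Fancg was called higher (0.51 ± 0.16, SE, log2 fold change) and Fancf was not (0.32 ± 0.17, SE). In signalling 1 of 15 was called higher (6.67%, background 48.6%), Babam1, with 30.2, 31.1 and 26.02 FPKM in derivatives against 12.3, 16.1 and 16.7 FPKM in irradiated CD24+ cells, and the fork protection genes Tipin and Timeless had -0.79 ± 0.38 and -0.64 ± 0.28 (log2 fold change, SE) without a call. In irradiated over non-irradiated CD24+ cells 0 of the 77 were called in either direction and 10 were higher at an unadjusted p under 0.05 (background 12.2%). For derivatives over non-irradiated CD24+ cells the counts were 38 higher and 1 lower (49.4% and 1.3%, background 65.7% and 4.99%).

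A sequence feature that the choice of genes did not use was found at the starts of some of the 41 genes. The letters TTTCCCGC, a core form of the site bound by E2F factors at genes of the S phase, or their complement, were in 7 of the 39 promoters (17.9%), against 1.90% of the promoters of genes tested and 1.07% of all promoters, while a second form, TTTGGCGC, was in none of the 39, against 1.01% and 0.514% of the same sets. Among promoters of the other repair genes 1 of 75 held the first form (1.33%). The 7 sites are shown in 40 bases each, in the direction of the gene, from RefSeq on build GRCm38.p6, with the match in capitals.
Bard1 (chr1:71103158-71103197, minus strand): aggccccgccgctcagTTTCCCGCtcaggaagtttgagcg
Brca2 (chr5:150522437-150522476, plus strand): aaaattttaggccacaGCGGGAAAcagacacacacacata
Chek2 (chr5:110839815-110839854, plus strand): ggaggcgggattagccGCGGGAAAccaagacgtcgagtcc
Mdc1 (chr17:35841466-35841505, plus strand): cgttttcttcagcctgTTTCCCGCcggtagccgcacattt
Msh6 (chr17:87975049-87975088, plus strand): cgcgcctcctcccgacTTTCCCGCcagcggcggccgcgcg
Rad51c (chr11:87404936-87404975, minus strand): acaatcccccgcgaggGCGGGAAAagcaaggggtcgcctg
Xrcc6 (chr15:82016307-82016346, plus strand): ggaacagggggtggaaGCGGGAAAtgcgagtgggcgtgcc

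None of the base excision, Fanconi or nucleotide excision promoters held the letters. By class, 3 of these genes belong to homologous recombination (Bard1, Brca2, Rad51c), 2 to signalling (Chek2, Mdc1), 1 to mismatch repair (Msh6) and 1 to end joining (Xrcc6). In 4 of them (Brca2, Chek2, Rad51c and Xrcc6) the letters run on the other strand. None of the 5 that were tested was called between derivatives and irradiated CD24+ cells, and their fold changes ranged from -0.67 for Msh6 to 0.22 for Xrcc6 on the log2 scale. The fit with the replicate block called Mdc1, Msh6, Chek1 and Ung lower, and the listed promoters of Chek1 and Ung hold no full match. The listed Chek1 sequence ends in gcgggaa, so a match that runs past its edge would not be counted. A link between the letters and the levels was not tested. The fit with no filter called Rad51c lower. In derivatives over non-irradiated CD24+ cells, Chek2 and Xrcc6 were called higher (log2 fold changes of 0.94 and 0.83). A match is a description of letters and shows no binding. The cell cycle element TTTGAA was in 2 of 39 promoters (5.13%), against 12% of promoters of genes tested, 17.9% of all promoters and 12% of promoters of other repair genes. CCAAT was in 18 of 39 (46.2%), against 38.3%, 37.4% and 62.7% of the same sets.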

How the data were processed

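RNA was measured in 8 libraries of sorted intestinal epithelial cells, in 3 groups taken from the sample labels. The authors deposited 1 table of FPKM for all 8 libraries, with 24015 entries. The 2 repeated entries were summed under their symbols, which left 24013. Per the submitters' processing notes, TopHat2 2.1.0, StringTie 1.3.4 and build mm9 were used. Per the labels' protocols, the TruSeq RNA v2 kit was used, which does not keep strand. Read counts were not given, so depth was approximated from the steps between low FPKM values of 5378 genes with a single transcript, at 34.4 to 44.7 in units of 1e6 reads, and limits precision for genes under 1 FPKM.

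Log2(FPKM + 1) was tested with limma 3.58.1 in R 4.3.3 (empirical Bayes with a trend) in 1 fit over all 8 libraries, for the 11190 genes with at least 1 FPKM in at least 2 libraries. Fold changes understate the change of low genes. P-values were adjusted by Benjamini-Hochberg over all genes tested, with a threshold of 0.05. The fit was tested on simulated data. Genes described with values in every library were partly fixed by role. In each class, members with the smallest p-values in derivatives over irradiated or in irradiated over non-irradiated CD24+ cells were added. Of the other repair genes, those with the smallest p-values in derivatives over irradiated CD24+ cells were described. The remaining genes are given by range and counts. Some genes of the lists enter the counts and are not reported here by name. The members and lists were chosen with earlier results of these data known. Replicate numbers are in the labels of each group. Deviations from the group means correlated at 0.366, 0.231 and 0.402 between same-numbered derivative and irradiated CD24+ libraries, and at -0.0499 to 0.232 with non-irradiated libraries. The labels do not say whether same-numbered libraries came from the same mouse, so the fit described above is unpaired and the block is an alternative. Alternatives were the pseudocount, the filter, the scaling, the samples fitted, array weights, robust moderation, the replicate block and each library left out. Figures were drawn with matplotlib 3.10.9. Promoter sequences came from RefSeq (GRCm38.p6), with 34 of the 41 genes matched by symbol, and exon overlaps from GENCODE M21.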

Additional observations from a re-analysis of the deposited data

How the results depend on the processing

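For derivatives over irradiated CD24+ cells, the count called higher (3) was 0 with a filter of 5 FPKM, which no longer tests the 3 genes, 25 after TPM rescaling, and 1 each with median-of-ratios scaling, quantile normalization and the replicate block with median-of-ratios scaling. The count called lower (1) was 0 after TPM rescaling and with scaling to genes outside the Paneth list, 29 with median-of-ratios scaling, 28 with quantile normalization, 5 with only the 2 groups fitted, 16 with array weights, 4 with the replicate block, 5 with the block in only the 2 groups and 27 with the block and median-of-ratios scaling. For derivatives over non-irradiated CD24+ cells, the count higher (8) was 5 with the 5 FPKM filter, 38 after TPM rescaling, 1 with median-of-ratios scaling, 2 with quantile normalization, 5 with array weights and 1 with the block and median-of-ratios scaling. The count lower (0) was 1 with no filter, 15 with median-of-ratios scaling, 16 with quantile normalization and 15 with the block and median-of-ratios scaling. Leaving out each library in turn gave 2 to 4 higher and 0 to 5 lower for derivatives over irradiated CD24+ cells, 4 to 15 higher and 0 lower for derivatives over non-irradiated CD24+ cells, and 0 to 21 higher and 0 lower for irradiated over non-irradiated CD24+ cells.

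Where a gene was called before or after a change of setting, its sign turned only with the scaling. After TPM rescaling the log2 fold change of derivatives over irradiated CD24+ cells was positive for Brca1 (0.67), Fanca (0.85), Fanci (0.57), Mre11a (0.82), Ogg1 (0.71), Parp1 (1.08), Pms2 (0.80), Prkdc (0.70), Rad50 (0.98), Rad52 (0.66), Rnf168 (1.06), Ung (0.093) and Xrcc3 (0.53). It was negative with median-of-ratios scaling for Chek2 (-0.42), Lig3 (-0.37), Nbn (-0.37), Rnf8 (-0.42), Trp53bp1 (-0.40) and Xrcc6 (-0.31), and with quantile normalization for Chek2 (-0.48), Lig3 (-0.41), Nbn (-0.42), Parp2 (-0.47), Polb (-0.32), Rnf8 (-0.50), Xrcc1 (-0.41) and Xrcc6 (-0.55). For derivatives over non-irradiated CD24+ cells the values of Parp2, Polb, Xrcc1 and Xrcc6 were -0.080, -0.015, -0.12 and -0.12 with median-of-ratios scaling, -0.21, -0.13, -0.14 and -0.29 with quantile normalization, and -0.056, -0.019, -0.048 and -0.090 with the block and median-of-ratios scaling, an alternative chosen after seeing the data. The cause of each change was not tested beyond the scaling itself. Among all member values under the alternatives, a further 48 signs for derivatives over irradiated and 27 for irradiated over non-irradiated CD24+ cells turned with no call before or after. For derivatives over non-irradiated CD24+ cells, the genes with no call as deposited gave 67 such turns and 23 more in which the alternative made a call, all of the 23 with median-of-ratios scaling, quantile normalization or TPM rescaling. The replicate block called none of the repair genes in irradiated over non-irradiated CD24+ cells. The members' median minus that of all genes was -0.90 to -0.31 for derivatives over irradiated CD24+ cells over 22 fits.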
